A study of Homo sapiens with 32 samples.

Results

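The mRNAs of 7 glycolytic enzymes (GAPDH, ENO1, PKM, LDHA, ALDOA, PGK1 and TPI1) were followed in base counts from ac4C sequencing of Hep3B cells, a human hepatocellular carcinoma line. Members were the exonic positions of the canonical transcript of each gene on the strand of the gene, which came to 15415 positions. Of these, 2496 had at least 30 reads in all 32 libraries, out of 309717 such positions in the whole series. Of 20020 annotated protein-coding genes, 258 had at least 100 exonic positions shared by all libraries, and 5 of the 7 members were among them. PKM had 86 shared positions and PGK1 had 0. On GRCh38 the genes lie at chr12:6534512-6538374 (GAPDH, plus strand), chr1:8861000-8879190 (ENO1, minus), chr15:72199029-72231819 (PKM, minus), chr11:18394560-18408425 (LDHA, plus), chr16:30064164-30070457 (ALDOA, plus), chrX:77910739-78129295 (PGK1, plus) and chr12:6867119-6870948 (TPI1, plus).

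Total RNA was fragmented and each sample was divided into a mock and a NaCNBH3 fraction. NaCNBH3 reduces N4-acetylcytidine (ac4C), the modification made by the acetyltransferase NAT10, and the reduced base is partly read as T. The 8 genotypes were sequenced in 2 replicates each, and dTAGV1, a degrader, was given at 100 nM over 24 h to all cells, controls included. Wildtype denotes parental cells. FKBP denotes cells whose endogenous NAT10 carries the FKBP12-F36V degron tag, which the degrader removes. The other 6 genotypes were FKBP cells transduced with a control plasmid, named NAT10(-), with NAT10-WT, with the helicase mutants K290A and E389L, or with the acetyltransferase mutants H537A and G641E. Those 6 were selected with blasticidin for 5 days, whereas Wildtype and FKBP cells were neither transduced nor given this selection. The study made the tagged line by selection with hygromycin B and G418, which it does not describe for parental cells. The sources do not say whether the tagged line is 1 clone. The labels give a replicate number, and the study describes replicates as run on separate days, with independent transductions for transduced cells. Since whole cultures were sequenced, fewer cells with a transcript and less of it per cell cannot be told apart.

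Glycolysis converts glucose to pyruvate and yields ATP and NADH. ALDOA cleaves fructose 1,6-bisphosphate, TPI1 interconverts the resulting triose phosphates, GAPDH oxidizes glyceraldehyde 3-phosphate, PGK1 makes the first ATP of the payoff phase, ENO1 forms phosphoenolpyruvate, PKM converts it to pyruvate, and LDHA reduces pyruvate to lactate with the return of NAD+. Hepatocytes use the liver pyruvate kinase PKLR, and many tumours instead express the PKM2 splice form of PKM. NAT10 is known to acetylate the middle C of CCG in 18S rRNA and tRNA, so the CCG cytosines of these mRNAs are printed below as the places where acetylation of this kind would be read.

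In each member the CCG cytosine with the most reads was chosen, and 14 bases on either side are shown from the transcript sequence of GRCh38, 5' to 3', with CCG in capitals. The cytosine lay in the 5' UTR in GAPDH (exon 2), ENO1, PKM, LDHA and PGK1 (exon 1 each), and in the coding sequence of ALDOA (exon 3) and TPI1 (exon 1). Plus-strand genes are GAPDH on chromosome 12 (cytosine at 6534811), LDHA (chr11:18394608-18394636), ALDOA (chr16:30067304-30067332), PGK1 (chrX:78104298-78104326) and TPI1 on chromosome 12 (cytosine at 6867670). Minus-strand genes are ENO1 (chr1:8878601-8878629) and PKM (chr15:72231121-72231149). The windows of GAPDH and TPI1 cross an exon junction.
GAPDH: tttgcgtcgccagCCGagccacatcgctc
ENO1: tctgcagcaccctCCGcttcctctcctag
PKM: tttgcagcgtagcCCGagtcggtcagcgc
LDHA: ccccgacgaccgcCCGacgtgcattcccg
ALDOA: ctgacatcgctcaCCGcatcgtggcacct
PGK1: gttgaccgaatcaCCGacctctctcccca
TPI1: cgcggccaaggtgCCGgccgacaccgagg

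Between 400119 and 3797803 positions per library reached 30 reads, and their median depth was 49 to 169. Positions under 30 reads are absent from the counts, so the share of a transcript that was covered moved with depth, and K290A replicate 1 was the most widely covered sample. The liver character of the cells was checked on fixed markers, which do not identify the line as Hep3B. All 12 liver cell markers reached 30 reads in some library, 7 of them (ALB, APOA2, AHSG, TF, APOA1, SERPINA1 and APOB) in all 32, while the 3 blood, 3 fibroblast and 2 endothelial markers reached it at no position in any library.

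Before the levels are compared, the base composition of GAPDH sets the Wildtype libraries apart. At transcript position 69, counted from 1 at the 5' end, the change C69G (chromosome 12, 6534825, 5' UTR, exon 2) was read in 26.5% and 26.2% of reads in the mock and NaCNBH3 fractions of Wildtype replicate 1, and in 26.7% and 26.4% of replicate 2. In the 28 libraries of the 7 genotypes that carry the tag it was read in 0 to 0.0825% of reads. The groups do not overlap. T457C (6537154, coding, exon 6) was read in 70.4% to 72.7% of Wildtype reads and in 98.6% to 100% of the reads of the other libraries. T961C (6537943, coding, exon 8) was read in 68.5% to 71.7% and in 99.0% to 100%. The 29 reference bases around each position are given here with the position in capitals, and none of these windows with its changed base occurs in GRCh38. The reference window occurs there at 1 place for C69G and T961C and at 5 places for T457C, where the minor base of Wildtype is the reference T.
GAPDH C69G: cgagccacatcgctCagacaccatgggga
GAPDH T457C: gccccctctgctgaTgcccccatgttcgt
GAPDH T961C: cactcctccaccttTgacgctggggctgg

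**Figure D1:**
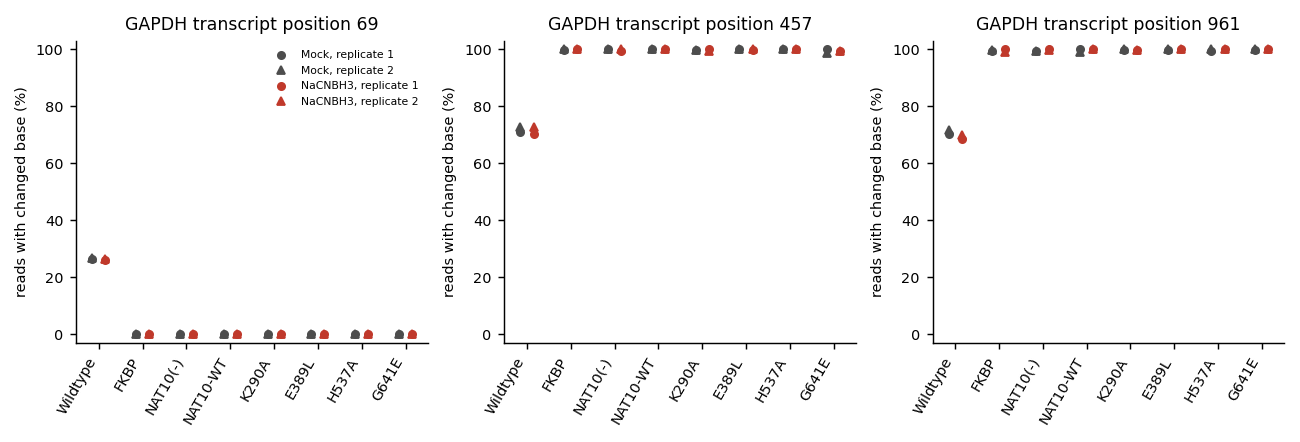
Share of reads (%) with the changed base at 3 positions of the GAPDH transcript, by genotype, with circles for replicate 1, triangles for replicate 2, grey for mock and red for NaCNBH3. The 4 Wildtype libraries lie between 26.2% and 26.7% at position 69, where the other 28 lie at 0.0825% or less, and near 70% at the other positions, where the rest lie at 98.6% or more.

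A minor base was thus read in Wildtype GAPDH mRNA at these 3 positions and hardly or not at all in the libraries of the tagged line. LDHA gave the same kind of value where it could be read. C446A (chromosome 11, 18400940, coding, exon 4) stood at 58.8% of 34 reads in the 1 Wildtype library with 30 reads there, and at 97.6% to 100% in 10 other libraries. Over the whole series, 11 of 309717 shared positions were intermediate (over 10% and under 90% of reads with a changed base) in the 4 Wildtype libraries and fixed (under 2% or over 98%) in the other 28. They lay on chromosome 11 (3) and chromosome 12 (8), with 0 elsewhere, and the minor base took 21.5% to 38.9% of Wildtype reads. No position was intermediate in another genotype alone, and 0 were fixed in Wildtype and intermediate in the rest. These positions were chosen after their values were seen, the values are a description with no test, and their part in the level differences given below was not tested. GAPDH and TPI1 both lie on chromosome 12, and LDHA on chromosome 11.

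Coverage of the 7 transcripts spanned the full range. GAPDH was covered over 96.9% to 99.9% of its 1285 exonic positions (median 99.4%), close to ACTB, the reference mRNA for cytoplasmic actin, at 99.3% to 99.8%. ENO1 was covered over 55.0% to 99.6% (median 96.0%). ALDOA was covered over 21.1% to 89.3%, TPI1 over 10.1% to 90.6% and PKM over 3.82% to 98.3%. LDHA reached 73.0% at most with a median of 12.2%. PGK1 reached 36.2% at most with a median of 3.80%, and 6 libraries held 0 of its positions, among them both fractions of E389L replicate 2 and of H537A replicate 2. GAPDH could therefore be compared over 96.9% of its length and ENO1 over 44.2%, with no shared position in the 3' UTR of ENO1. LDHA (4.55%), PKM (3.73%) and TPI1 (10.1%) were shared by all libraries mainly near the 5' end, and the 138 shared positions of ALDOA (8.41%) were all coding.

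**Figure D2:**
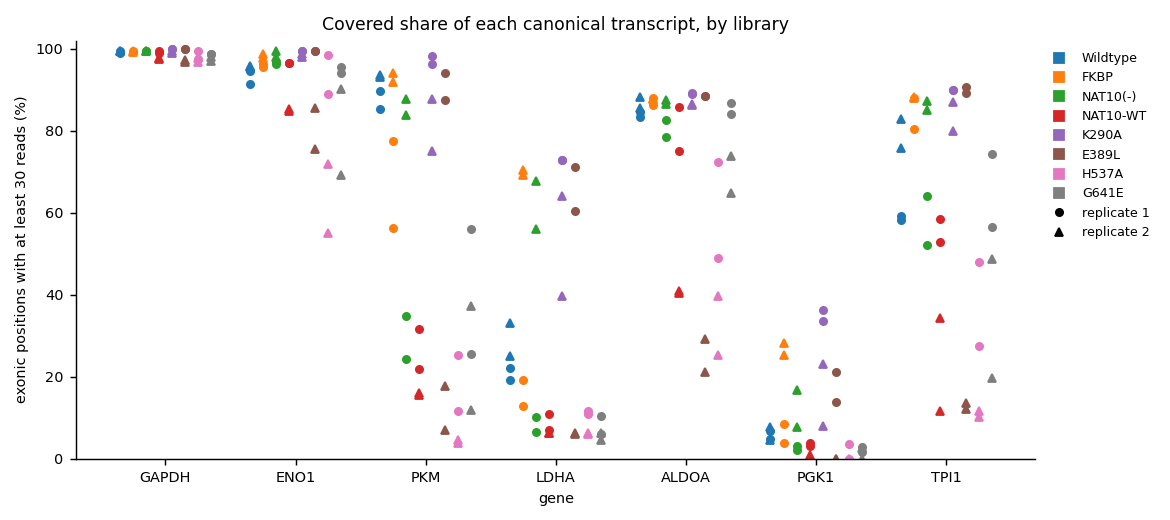
Share (%) of the exonic positions of each canonical transcript that had at least 30 reads, with 1 point per library, colour for genotype, circles for replicate 1 and triangles for replicate 2. GAPDH stays between 96.9% and 99.9%, and PGK1 stays at 36.2% or less.

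Depth was highest at the 5' end in 6 of the 7 mRNAs. The mean depth of the first 90 bases was divided by the mean depth of the rest, with absent positions as 0. The median ratio over libraries was 2.25 in GAPDH, 2.99 in ENO1, 3.72 in PKM and 3.95 in TPI1, and it rose to 16.4 in PGK1 and 18.7 in LDHA. ALDOA alone stood below 1, at 0.518, and exon 2 of its canonical transcript had a median covered share of 0%. ACTB stood at 2.34, and the median of 236 other genes was 2.21 with quartiles of 1.48 and 3.87, so that 204 of them were above 1. By region, the 5' UTR of LDHA held 11.02 times the transcript mean and its 3' UTR 0.0112 times, compared with 2.05 and 0.621 in GAPDH. The values for LDHA and PGK1 therefore describe mostly the first bases of these mRNAs.

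**Figure D3:**
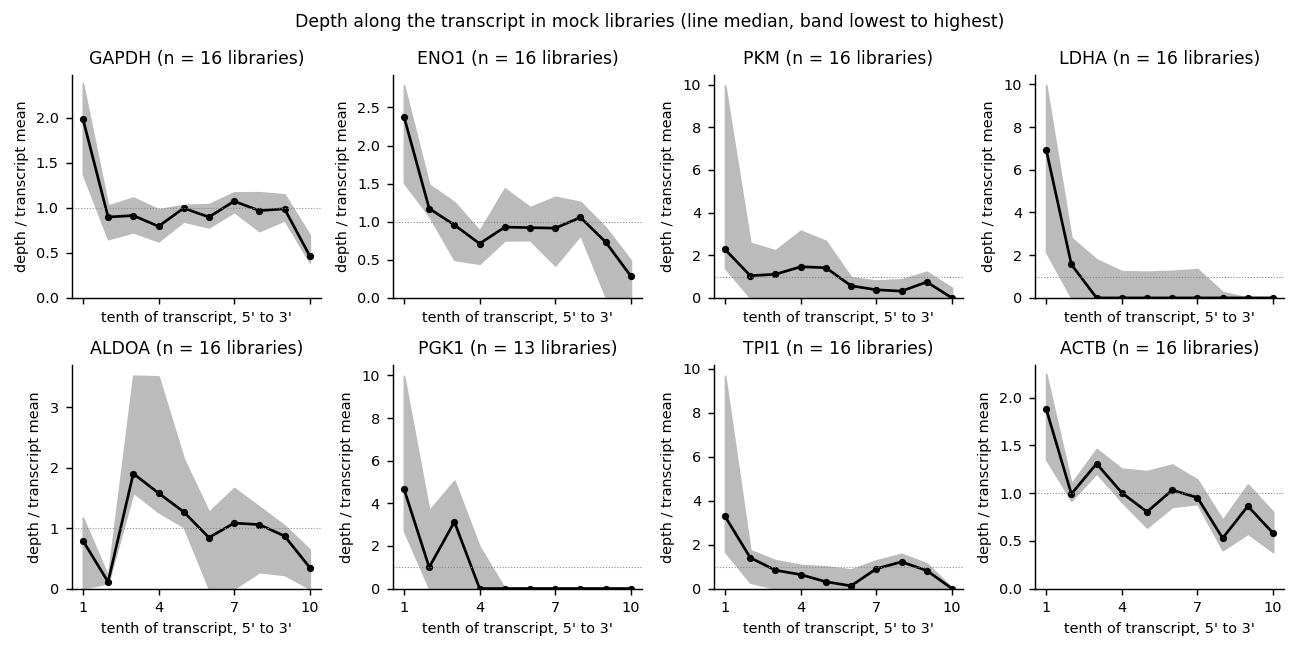
Depth in 10 equal bins along the canonical transcript, 5' to 3', divided by the mean of the transcript (absent positions as 0), in mock libraries, for the 7 mRNAs and ACTB. The line is the median over libraries and the band runs from the lowest to the highest. GAPDH is nearly flat after bin 1, while the median of LDHA is 0 from bin 3 on.

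Levels were taken as the mean depth over shared positions as a percentage of that of ACTB, which is a value per position. It covers nearly all of GAPDH but chiefly the deeper 5' end of LDHA, PKM and TPI1, so the values serve for genotypes within a gene and not for ranking genes. GAPDH stood at 41.0% to 60.7% (median 50.8% over 32 libraries), TPI1 at 12.5% to 38.2% (25.8%), ENO1 at 20.9% to 32.4% (25.3%), ALDOA at 13.6% to 29.6% (22.5%), LDHA at 9.23% to 27.9% (17.5%) and PKM at 8.36% to 35.3% (17.3%). Over the whole transcript with absent positions as 0 the medians were 49.7% in GAPDH, 18.5% in ENO1, 10.8% in ALDOA, 7.81% in TPI1, 4.93% in PKM, 1.72% in LDHA and 0.306% in PGK1. The first scale raises genes and libraries that pass 30 reads only where they are deepest, and the second lowers them.

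The comparison among genotypes asked whether loss of NAT10, or of its helicase or acetyltransferase function, went with another level of these mRNAs. It was made with limma on log2 depth relative to ACTB, with the 2 fractions averaged, over 257 genes with adjustment over all of them. Any difference among the 8 genotypes was called for 71 genes (27.6%), but for 0 of the 5 members tested. With the replicate number as a block the counts were 127 genes (49.4%) and 0 members, LDHA being nearest to a call (adjusted p = 0.0559). Centred on the median of all genes, limma called 104 of 258 genes, with ACTB kept in the fit. Of the 5 members, 2 were among them, ALDOA (adjusted p = 0.0149) and TPI1 (adjusted p = 0.0473). Without a block and relative to ACTB the adjusted p was 0.193 for LDHA, 0.318 for ALDOA, 0.538 for TPI1, 0.601 for ENO1 and 0.913 for GAPDH (limma). An unadjusted p of 0.05 was passed by 106 genes of that fit and by 0 members. The edgeR quasi-likelihood test called 62 genes and 0 members. Data simulated with the spread of these libraries (2570 genes, K290A against NAT10-WT) gave calls for 83 of 200 genes changed by 1 on the log2 scale and for 0 of 200 changed by 0.5.

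Against NAT10-WT, 0 of the 5 members were called in any of the 7 contrasts of that limma fit. The share of all genes called was 4.67% in Wildtype, 1.17% in FKBP, 39.3% in K290A and 0.778% in G641E, and 0% in NAT10(-), E389L and H537A. With the replicate block the number of genes called rose from 12 to 88 in Wildtype, from 3 to 47 in FKBP and from 101 to 120 in K290A, fell from 2 to 0 in G641E, and stayed at 0 in the others, with 0 members in each. At an unadjusted p under 0.05 and without the block there were 0 genes in NAT10(-) and H537A and 1 in E389L. Depth relative to ACTB shifted the median of all genes by -0.60 on the log2 scale in K290A, by -0.55 in Wildtype, by -0.39 in FKBP and by -0.25 in G641E, so members near 0 there stood above most genes. GAPDH differed from NAT10-WT by 0.00 ± 0.23 (log2, SE, n = 2) in K290A and by 0.04 ± 0.23 in Wildtype, which puts it above the median gene of those contrasts. When each library was centred on the median of all genes, GAPDH was higher in K290A by 0.46 and was called (limma adjusted p = 0.0349), the 1 member called in that contrast on that scale.

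GAPDH, used in many laboratories as a loading control, held a narrow range. Its depth was 50.7% and 49.5% of ACTB in Wildtype replicates 1 and 2, 46.3% and 49.6% in FKBP, and 53.9% and 57.0% in NAT10(-). In cells with exogenous NAT10 it was 46.6% and 50.96% in NAT10-WT, 41.2% and 57.5% in K290A, 48.6% and 54.2% in E389L, 47.0% and 56.0% in H537A, and 58.6% and 59.2% in G641E. G641E was the highest genotype and was the 1 genotype of 8 that did not overlap with its neighbour in the order of means, which was NAT10(-). Its difference from NAT10-WT was 0.27 ± 0.23 on the log2 scale (limma adjusted p = 0.652). Of 7 neighbouring pairs in that order, 1 stood apart in GAPDH, 0 in LDHA and 2 each in ENO1, PKM, ALDOA and TPI1. How often neighbours stand apart over all genes, with 2 replicates each, was not counted. Wildtype, where the minor base was read, and FKBP, where it was not, differed in total GAPDH depth by 0.07 ± 0.16 on the log2 scale over 1271 positions (limma adjusted p = 0.833).

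**Figure D4:**
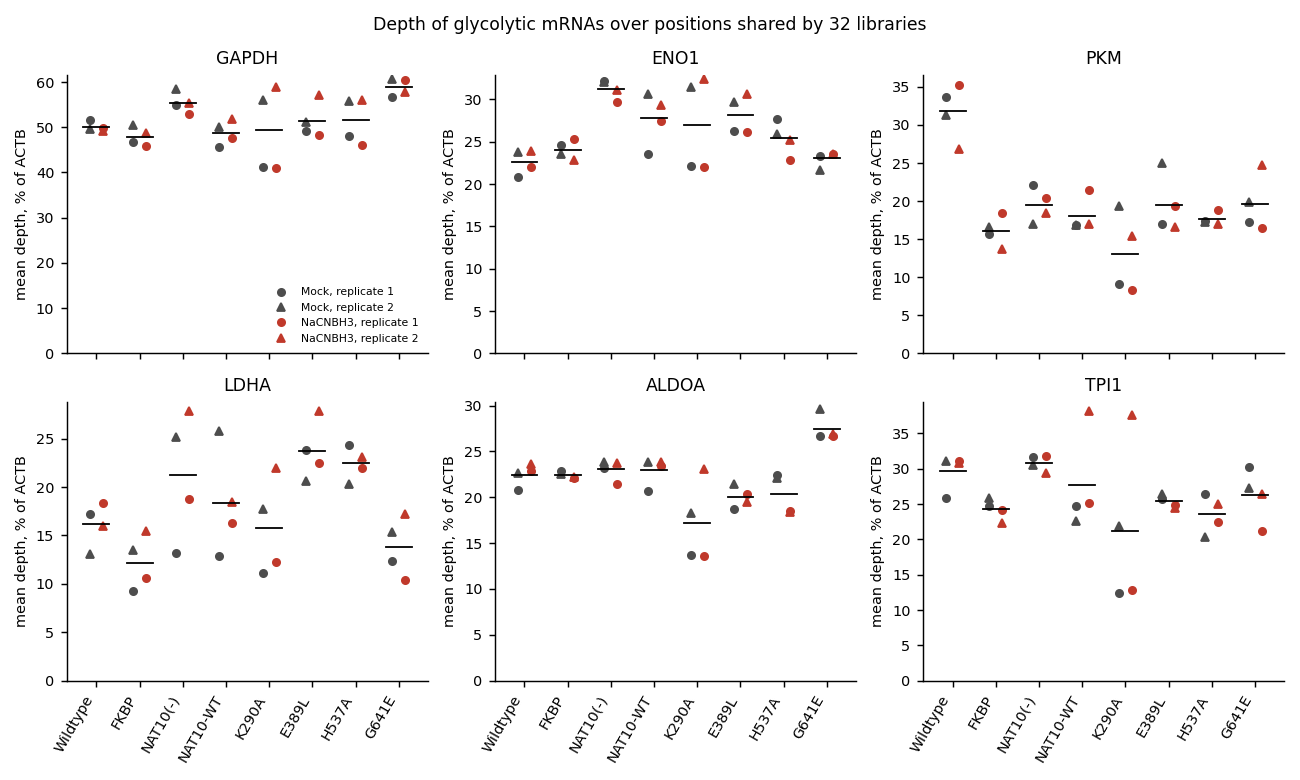
Mean depth over positions shared by the 32 libraries, as a percentage of ACTB, for 6 mRNAs (PGK1 has no shared position), by genotype, with circles for replicate 1, triangles for replicate 2, grey for mock, red for NaCNBH3 and a bar at the mean. PKM is highest in Wildtype (mean 31.8%), and K290A replicate 1 lies below replicate 2 in all 6 mRNAs.

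ALDOA and TPI1 were lowest in K290A, but its replicates stood apart. TPI1 was 12.6% of ACTB in replicate 1 and 29.7% in replicate 2, and ALDOA was 13.6% and 20.7%. TPI1 in the other genotypes ran from 22.7% to 31.7% and ALDOA from 19.5% to 28.3%, so that replicate 2 of K290A fell within the range of the others for both. These values average 2 fractions, which could stand far apart. TPI1 in K290A replicate 2 was 21.9% in mock and 37.6% in NaCNBH3. In NAT10-WT replicate 2, of the reference genotype, it was 22.6% and 38.2%. The fit gave TPI1 -0.51 ± 0.30 against NAT10-WT (limma adjusted p = 0.199) and ALDOA -0.45 ± 0.23 (adjusted p = 0.147). The median gene stood at -0.60 in that contrast, and centred on it TPI1 became -0.04 and ALDOA 0.01. Without K290A replicate 2, TPI1 became -1.10 (limma adjusted p = 1.4e-04) and ALDOA -0.75 (adjusted p = 9.1e-04), where K290A is 1 sample assumed to vary like the other genotypes. Without K290A replicate 1, TPI1 became 0.09. With absent positions as 0 they stood at 0.63 and 0.10. Replicate 1 was the most widely covered sample of the series, and the part of depth in its values was not tested.

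ENO1 was lowest in Wildtype (21.4% and 23.9% of ACTB) and highest in NAT10(-) (30.97% and 31.6%). Its contrasts with NAT10-WT ran from -0.29 ± 0.24 in Wildtype to 0.18 ± 0.24 in NAT10(-). LDHA was lowest in FKBP (9.90% and 14.5%) and highest in E389L (23.2% and 24.2%), with no neighbouring genotypes apart in the order of means. FKBP stood -0.57 ± 0.34 from NAT10-WT in LDHA (limma adjusted p = 0.259), which turned to 0.98 with absent positions as 0. In ENO1 the replicates of NAT10(-) lay above those of E389L, its neighbour in that order, and those of H537A above those of FKBP. Neither mRNA passed the test among genotypes or against NAT10-WT.

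PKM was highest in Wildtype cells. Over its 86 shared positions, all in the 5' UTR, depth was 34.5% and 29.1% of ACTB in Wildtype replicates 1 and 2. It was 17.1% and 15.2% in FKBP, 21.3% and 17.7% in NAT10(-), 19.2% and 16.97% in NAT10-WT, 8.72% and 17.4% in K290A, 18.1% and 20.8% in E389L, 18.1% and 17.1% in H537A, and 16.9% and 22.3% in G641E. Both Wildtype values lay above all 14 others, and among the 7 tagged genotypes the neighbours in order overlapped except for H537A and FKBP. With absent positions as 0 over the whole transcript, Wildtype gave 11.2% and 11.7% and the others 0.703% to 8.24%, again with no overlap. How many other genes hold both Wildtype values apart from the rest was not counted. In the fit of 257 genes, 96 passed an unadjusted p of 0.05 (limma) in Wildtype against NAT10-WT. Over the 226 positions present in the 16 libraries of replicate 1, Wildtype gave 25.9% in mock and 28.4% in NaCNBH3, against 7.35% to 18.5% elsewhere. With at least 30 shared positions as the filter, PKM entered the fit of 307 genes, and Wildtype differed from NAT10-WT by 0.81 on the log2 scale (limma adjusted p = 0.0872).

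A comparison added after these values were seen set Wildtype against FKBP over positions present in their 8 libraries, so that all 7 mRNAs could enter. PKM gave 15.09% and 15.03% of ACTB in Wildtype and 8.10% and 10.3% in FKBP over 1291 positions, which is 0.72 ± 0.19 on the log2 scale (limma adjusted p = 0.0883 over 566 genes). Among all genes, 4 (0.707%) were called in this comparison and 158 passed an unadjusted p of 0.05, and PKM ranked 30th by log2 difference. When each library was centred on the median of all genes, PKM was called (0.76, adjusted p = 0.0183), and without FKBP replicate 2 it gave 0.89 (adjusted p = 0.0154), where FKBP is 1 sample assumed to vary like Wildtype. With the replicate number as a block the adjusted p was 0.126, and 10 of 566 genes were called. PGK1 gave 7.80% and 6.73% in Wildtype and 6.69% and 8.02% in FKBP over 116 positions, and TPI1 gave 14.01% and 14.65% against 12.8% and 13.1% over 700. Neither passed the test (adjusted p = 0.967 and 0.574).

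PKM also offers a splicing readout, since exons 9 and 10 are mutually exclusive and mark PKM1 and PKM2. The exons are both 167 bases long and agree at 105 of them (62.9%). The stretch of 29 bases in which they differ most is shown, with differing bases in capitals, for exon 9 (chr15:72203111-72203139) and exon 10 (chr15:72202543-72202571), minus strand of GRCh38.
PKM exon 9: aactTGTGcgAGCCTcAAGTCACTccaCA
PKM exon 10: aactCCGCcgCCTGGcGCCCATTAccaGC

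Exon 10 had positions with 30 reads in 20 of 32 libraries, and all of its 167 positions did in 8 of them. Exon 9 had 0 in every library. The share of exon 10 was thus 100% wherever it was defined, in 11 of the genotype and replicate combinations, and a test among genotypes had no variation to work on. Absent positions may hold up to 29 reads. With 29 reads at each, exon 10 took 72.2% in the library where it was deepest (K290A NaCNBH3 replicate 1, mean depth 75.2), which is a lower bound there.

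Other genes of the pathway were mostly below the depth of these files. Of 42 genes of glycolysis, glucose and lactate transport and pyruvate entry, 15 had a position with 30 reads in some library, and the 27 others had none. Those without one included HK1, LDHB, PKLR, ENO2 and SLC2A1. Besides the members, MPC2 (a subunit of the mitochondrial pyruvate carrier) was present in 31 libraries with a median of 2.00% of ACTB over its transcript (absent positions as 0), PGAM1 (phosphoglycerate mutase) in 26 with 1.45%, and GPI (glucose-6-phosphate isomerase) in 25 with 0.657%. HK2, the hexokinase of many tumours, reached it in 7 libraries and the liver phosphofructokinase PFKL in 4. Since 5 of the list had 100 shared positions and all 5 were members, 0 of 5 passed the test in either direction.

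The genes whose pattern over the 16 genotype and replicate values was most like the mean of the 5 members were RPS26 (Pearson r = 0.90), H2BC12 (0.89), H2BC5 (0.88), H1-2 (0.88) and H4C2 (0.88). All values share the ACTB depth of their library. When libraries were centred on the median of all genes instead, the same r was 0.10, -0.10, 0.03, -0.22 and -0.22. Among the members, ALDOA and TPI1 were most alike (r = 0.77), and ALDOA and LDHA were least alike (0.01).

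Processed pseudogenes were kept apart. None of the 65 annotated pseudogenes of GAPDH had a position with 30 reads in any library. ENO1P1 had up to 82 such positions in 2 libraries, LDHAP4 up to 67 in 2, and TPI1P1 up to 91 in 5. At the positions where LDHAP4 differs from LDHA, 99 base calls carried its own base and 65 that of LDHA. Base calls on covered pseudogenes came to at most 3.98% of those on TPI1, 1.73% of those on LDHA and 0.463% of those on ENO1.

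No member position was called C>T after NaCNBH3. A position was tested with Fisher's exact test in each replicate when both libraries had 30 reads and the main mismatch had 5 reads and over 1%, and a call needed replicates 1 and 2 each to reach an adjusted p below 0.05. Of the C>T positions tested in the whole series, the share called as higher was 8.72% in Wildtype, 4.67% in FKBP, 10.9% in NAT10-WT, 3.66% in NAT10(-), 4.38% in H537A, 3.73% in K290A and 3.69% in both E389L and G641E. Among members only 2 to 5 positions per genotype were tested in both replicates, 1 of them a C>T, and 0 were called at 1% or at 0.1%. At an unadjusted p of 0.05, 1 member position passed in 1 replicate (FKBP replicate 2, adjusted p = 0.0832 by Fisher's exact test, and 0.0190 with the threshold of 0.1%, where more positions were tested) and 0 passed in the other 15 genotype and replicate pairs. That position of FKBP replicate 2 is not named here, and it was not the C>T tested in both replicates. The latter was LDHA C581T in K290A (chromosome 11, 18402904, coding, exon 5). C581T was read in 99.0% to 100% of reads in the 9 libraries of tagged cells that covered it, mock and NaCNBH3 alike. In both fractions of FKBP replicate 2 it was read in 100%. Its window with the changed base occurs at 1 other place in GRCh38. A617G (18402940, exon 5) was likewise read in 100% of reads in 8 libraries.

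The CCG cytosines gave bounds on the share of reads with T, not on the share acetylated. The acetylated share can be higher, because the reduced base is only partly read as T and the rate was not measured here. The 7 mRNAs hold 128 of them among 3868 cytosines, and 120 had 30 reads in some library. In the pooled reads of the 4 NaCNBH3 libraries of Wildtype and NAT10-WT, the cytosine printed for GAPDH had 4 T in 2107 reads, or 0.190% (95% Clopper-Pearson interval 0.0517% to 0.485%), against 3 T in 1886 reads in mock. ENO1 had 1 T in 1021 reads (0.0979%) and PKM 1 T in 500. LDHA had 0 T in 323 reads, TPI1 0 in 408 and PGK1 0 in 116, which allow shares of up to 0.929%, 0.735% and 2.59% when the limit is set at 3 reads of the total. ALDOA also had 0 T, at a depth that allows up to 0.771% on that rule. The upper ends of the 95% Clopper-Pearson intervals are higher, at 1.14% in LDHA, 0.900% in TPI1, 3.13% in PGK1 and 0.944% in ALDOA. Of 33 CCG cytosines with at least 300 reads in those libraries, 14 had 0 T, and the highest was 0.482% (2 of 415 reads in ALDOA). These intervals and limits cover counting error only.

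Over all cytosines a small rise was measured in every pair. At the 749 member cytosines shared by the 32 libraries, the pooled C>T share was 0.0436% ± 0.0082 in mock and 0.0964% ± 0.0169 in NaCNBH3 (SD, n = 16), a difference of 0.0527 points in the same direction in 16 of 16 pairs (exact sign-flip permutation p = 3.05e-05, two-sided, the smallest that 16 pairs can give). The 27069 cytosines of other nuclear genes of the fit rose by 0.0526 points. Adenines of the members rose as much, with A>T at 0.0072% in mock and 0.0610% in NaCNBH3, a difference of 0.0538 points in 16 of 16 pairs (exact permutation p = 3.05e-05). Among the 12 kinds of mismatch, A>G rose by 0.0070 points (p = 2.75e-04, exact permutation), C>A by 0.0025 points (p = 0.0119, exact permutation) and G>T by 0.0032 points (p = 0.0390, exact permutation). T>C was the largest in mock at 0.444% and fell by 0.0138 points (p = 0.114, exact permutation). Its share includes the reads of GAPDH T457C and T961C, which were not left out, so it is not a rate of misreading. These p-values are not adjusted over the 12 kinds. By gene, the C>T difference was 0.0524 points in GAPDH, 0.0482 in ENO1, 0.0490 in ALDOA, 0.0477 in TPI1, 0.0683 in LDHA and 0.0708 in PKM.

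The rise did not differ detectably with NAT10 function. At the 30 CCG cytosines shared by all libraries, the shift was 0.0904 ± 0.0487 points in the 4 pairs of Wildtype and NAT10-WT and 0.0529 ± 0.0715 points in the 12 pairs of the other genotypes, a difference of 0.0375 points (exact permutation p = 0.352, two-sided). At the 719 other cytosines the same contrast gave 0.0039 points (exact permutation p = 0.682). The largest CCG share of any library belonged to NAT10(-) NaCNBH3 replicate 1, with 9 T in 3861 reads (0.233%). Wildtype NaCNBH3 replicate 1 followed with 9 T in 4854 reads (0.185%), so the genotypes overlapped.

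**Figure D5:**
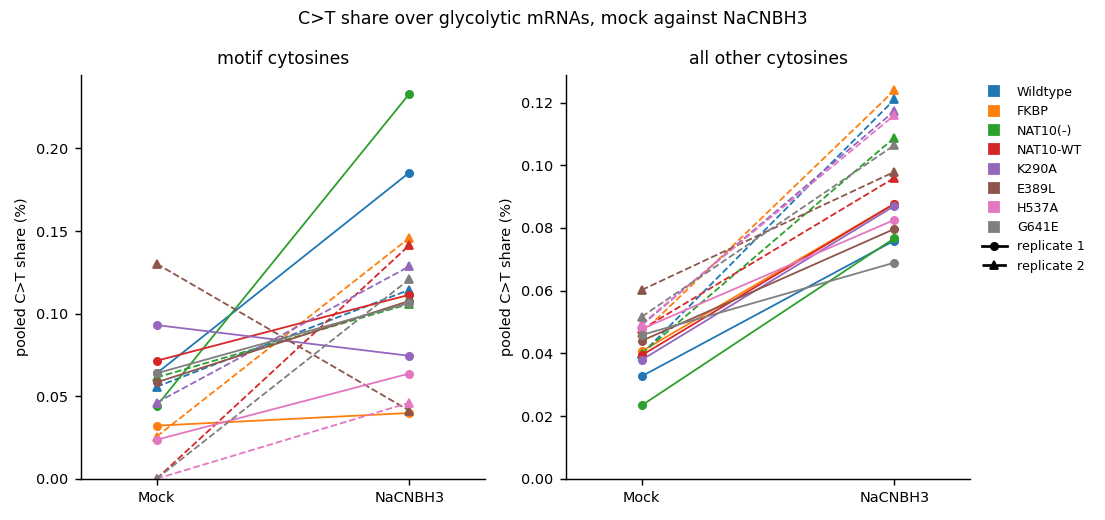
Pooled C>T share (%) over the members in the mock and NaCNBH3 fraction of each pair, with colour for genotype, circles and solid lines for replicate 1, and triangles and dashed lines for replicate 2. The left panel holds the 30 CCG cytosines (motif cytosines) and the right panel the 719 others. All 16 pairs rise in the right panel, and 14 of 16 rise in the left.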

How the data were processed

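The authors removed adapters with cutadapt 4.2, handled 10-nt molecular identifiers with UMI-tools 1.1.5, aligned reads to GRCh38 with STAR 2.7.9a and made base counts with SAMtools 1.6, versions per the submitters' processing notes. The deposited counts give reads of A, T, C and G per position and strand at positions with 30 or more reads, unnormalized. Reads of near-identical copies cannot be assigned with certainty. Gene models were GENCODE v44.

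Samples were grouped by their labels. Members, gene lists and tests were chosen with earlier results of these data known. Named genes were the members, ACTB, other glycolysis genes with 100 shared positions, the 5 genes most like the members, called positions and the deepest CCG cytosine of each member. No other glycolysis gene had 100 shared positions. Others of the pathway and marker lists are named for their coverage only and were chosen after their values were seen. Depth was averaged over positions present in all 32 libraries, divided by ACTB and tested with limma 3.58.1 (edgeR 4.0.16 as an alternative, R 4.3.3). Positions were tested with Fisher's exact test (numba) and pooled shares with exact permutation tests (scipy). The limma and Fisher tests were tested on simulated data: 131 of 200 positions raised to 10% among 50000 were called, and 2 others. With 5 mismatch reads required, low shares at shallow positions were not testable.

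Alternatives covered the reference, position and depth filters, fractions, replicates and pairing, and those for Wildtype against FKBP were chosen after seeing the data. For the blocked fit, the replicate number of the labels was taken to pair samples across genotypes, which is an assumption. Of 28 genotype pairs, 19 correlated above 0.1 in how replicates 1 and 2 differed (r from -0.482 to 0.674). The fit had no block, which the study's methods do not name, and the blocked fit is given beside it.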

Additional observations from a re-analysis of the deposited data

How the results depend on the processing

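Of 236 recomputed values of the main comparisons, 230 were unchanged. Most of the 236 were counts of members or positions called, where unchanged means an equal or nearly equal count and no direction was assessed. For the pooled C>T values alone it means the same direction and side of the threshold. With libraries centred on the median of all genes, limma called 104 of 258 genes, ALDOA (adjusted p = 0.0149) and TPI1 (0.0473) among them. The count of members called among 8 genotypes, 0 of 5, thus became 2. It ranged from 0 to 2 when single replicates were left out, reaching 2 without K290A replicate 2. The count in K290A against NAT10-WT became 1 under median centring and likewise ranged from 0 to 2. In the added comparison of Wildtype with FKBP the count of 0 became 1 (PKM) under median centring, and ranged from 0 to 1 without single replicates. With the replicate block the member count stayed at 0 of 5 and no call of a member changed, while the count over all genes rose from 71 to 127 (all 71 among them), and it was 45 with at least 100 reads per position.

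ALDOA in K290A changed sign to 0.0126 under median centring and to 0.10 with absent positions as 0, where TPI1 in K290A became 0.63 and LDHA in FKBP 0.98. Without single replicates TPI1 in K290A ranged from -1.10 to 0.0859 (the positive value without K290A replicate 1). Over the 35 member contrasts, 67 of 882 recomputed values had the other sign, and the cause was not tested. Many of the 882 could not change. The estimate stays the same with the replicate block, or when a replicate of a genotype outside the contrast is left out. The 67 of 882 is therefore not a rate of stability. C>T calls stayed at 0 in all 4 alternatives. At 1% and at 0.1%, however, the only member C>T tested in both replicates was LDHA C581T in K290A. It was read in 100% of mock reads and had no room to rise. The pooled C>T difference ranged from 0.0425 to 0.0630 points without single replicates, and the share of PKM exon 10 had no spread to test. Counting absent positions as 29 reads compares imputed values. Precision is limited by 2 replicates per genotype, by the minimum of 30 reads and by shared positions that favour the 5' end.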

Other observations

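The ratio of NaCNBH3 to mock depth relative to ACTB had medians of 0.986 in GAPDH, 1.00 in ENO1, 0.998 in PKM, 0.994 in ALDOA and 0.984 in TPI1 over 16 pairs. Single pairs ran from 0.947 to 1.12 in GAPDH and from 0.70 to 1.72 in TPI1. LDHA stood at 1.13 and was higher in NaCNBH3 in 12 of 16 pairs. At 1 position of ACTB, the reference, the change G1479A was read in 99.6% to 100% of reads in all 32 libraries, so the Wildtype libraries did not differ there from the others.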
